A study of Xenopus laevis with 3 samples.

Results

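Matrix proteases, cathepsins and the inhibitors that hold them in check were examined in the larval inner ear of Xenopus laevis. The members were the probe sets on the array whose single gene symbol names a matrix metalloproteinase (MMP), a tissue inhibitor of metalloproteinases (TIMP), an ADAM or ADAMTS protease, a tolloid-like protease, a cathepsin, a serpin, a cystatin, htra, fap or plat. Copies of a gene (.L and .S, from the subgenomes of this allotetraploid frog) were counted as 1 gene, and the value of a gene was that of its probe set with the highest mean. This gave 107 probe sets of 65 genes, out of 32475 frog probe sets and 9242 genes with a single symbol. The spelling rule also took in cstf1, cstf2 and cstf3, subunits of the cleavage stimulation factor of mRNA processing, which are neither proteases nor inhibitors, so that 62 genes belong to the theme. RECK, TIMP1, TIMP4 and the urokinase genes matched no member probe set and were not analysed here. Nor were the cathepsin genes ctsf, ctsg, ctsk, ctso and ctsw, for the same reason.

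The study hybridized inner ear RNA from larvae of stages 56 to 58, aged 38 to 44 days, to 3 Affymetrix GeneChip arrays. Each array was 1 biological replicate, a pool of the ears of 10, 7 and 8 animals for replicates 1, 2 and 3. The larvae had no treatment or genotype named in the labels and were bought from a supplier, and their mean weight was 0.55, 0.59 and 0.48 g in this order. All arrays are thus of 1 condition, and the only test the design allows is whether a value lies above the detection threshold. Values are GCRMA values, log2 intensities that the authors corrected for background and normalized between arrays. A gene was detected at a mean of 4 or higher, the expression criterion of the study's methods, and called when limma found its mean above 4 at an adjusted p under 0.05. Values of different probe sets are given side by side but not ranked as amounts of RNA, since probe sets differ in affinity. In whole tissue RNA, fewer cells of a type and less RNA per cell cannot be told apart.

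The arrays were alike in the distribution of their values. Between arrays, Pearson's r across frog probe sets lay at 0.994 to 0.996, and the medians of the arrays were 7.51 to 7.55. The values had been normalized between arrays, and r rests mostly on differences between probe sets. Neither is therefore a measure of array quality. Of the markers of the labelled tissue, 7 of 7 supporting cell and otic epithelium genes on the array and 3 of 3 hair cell genes were detected, and the tables did not pair the other hair cell markers, among them myo7a and otof, with a probe set. Of the genes listed for other tissues, 4 of 4 cartilage genes, 9 of 9 red cell genes and 7 of 7 skeletal muscle genes were detected. Of the red cell genes 8 were called, and hba1 was at 4 or higher in replicate 3 only. As 79.9% of all genes with a single symbol were detected, such counts alone do not show which tissues the pools held. Of 9 liver plasma protein genes only tf and ahsg were detected, and ttr, apoa1 and fga were under 4. Only tf was called, and ahsg was under 4 in replicate 3. ambp, under 4 on average, passed it in replicate 2 only.

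Pericellular proteolysis is a balance of enzymes and inhibitors. MMPs are zinc proteases made as inactive precursors, and among them the collagenases cut fibrillar collagen, the gelatinases cut denatured collagen and basement membrane, and membrane-type MMPs act at the cell surface. TIMPs block MMPs, serpins trap mostly serine proteases, and cystatins block the cysteine cathepsins, which degrade proteins in lysosomes and, when secreted, in matrix. In tadpoles, thyroid hormone induces several MMPs in organs that are remodelled at metamorphosis.

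Most of the genes were detected, though a smaller share than over all genes with a single symbol. By role, 10 of 10 cathepsins, 2 of 2 TIMPs and 3 of 3 membrane-type MMPs were detected. Of the secreted MMPs 8 of 12 were detected, of the serpins 10 of 17 and of the ADAMs 3 of 9. The counts by role are small and are to be read against the share over all genes. Of the 65 genes, 47 (72.3%) had a mean of 4 or higher, against 79.9% of all genes with a single symbol counted in the same way. limma called 44 of them (67.7%), against 78.7% of all genes, with adjusted p-values from 1.16e-07 to 0.00343. Per probe set, 66 of 107 (61.7%) were called, against 63.1% of all frog probe sets. These counts include the cstf genes, all of them detected and called, and without them 44 of 62 genes were detected. The members therefore did not exceed the background of the array in any of these counts. All 44 called genes were at 4 or higher in each of the 3 arrays, and 17 genes were under 4 in each of them. The detected genes without a call were mmp1, mmp13 and ctse, and mmp8 was under 4 on average but above it in 1 array.

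**Figure D1:**
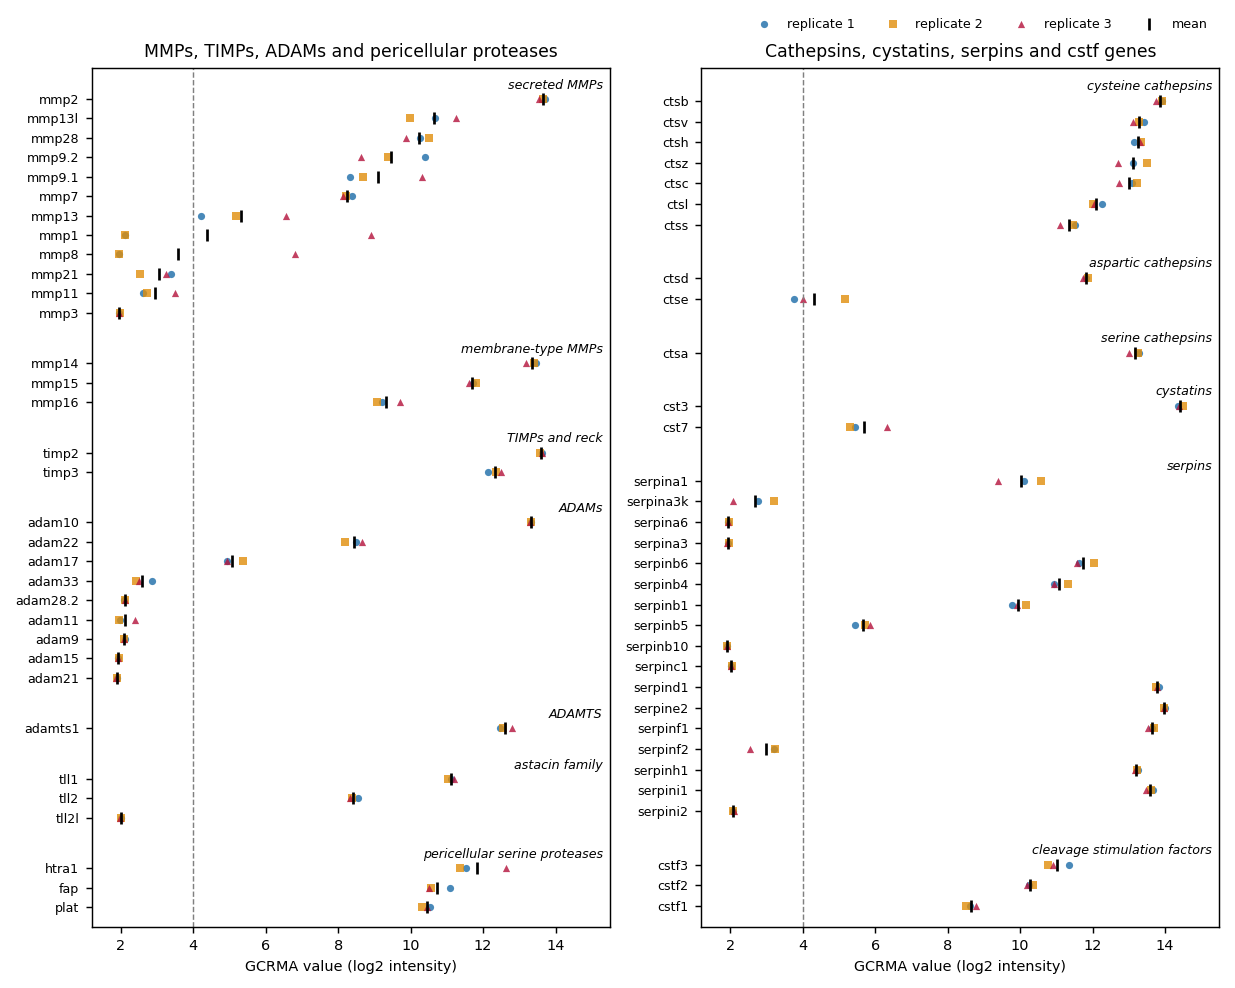
GCRMA values (log2 intensity, horizontal axis) of the 65 genes in each of the 3 arrays, with the mean as a bar, by role. The dashed line marks the detection threshold of 4, 47 genes have their mean at or above it, and the arrays lie apart mainly in the secreted MMPs. Where only 1 of the markers of replicates 1 and 2 is seen, the other lies under it.

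Among the secreted MMPs, mmp2, the gelatinase A of connective tissue, had values of 13.71, 13.66 and 13.55 in replicates 1, 2 and 3. Its mean was 13.64 ± 0.08 (SD, n = 3), and the 3 pools lay close together. The probe set of mmp13l.S, a collagenase 3-like gene, had 10.68, 9.98 and 11.26, with a mean of 10.64 ± 0.64 (SD, n = 3). Epilysin, mmp28, a protease of epithelia, had 10.26, 10.51 and 9.88 by a probe set of the L copy, with a mean of 10.22 ± 0.32 (SD, n = 3). Matrilysin, mmp7, which lacks the hemopexin domain, had 8.39, 8.22 and 8.13. In all, 8 of 12 secreted MMP genes were detected and 6 were called. Stromelysin-3, mmp11, which thyroid hormone induces in tadpole organs, stayed under 4 at 2.60, 2.72 and 3.49, as did mmp21 with a mean of 3.06 and mmp3, stromelysin-1, with 1.96.

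The membrane-type MMPs were detected in every array. mmp14, the activator of the mmp2 precursor, had 13.47, 13.40 and 13.20, with a mean of 13.35 ± 0.14 (SD, n = 3). Values for mmp15 were 11.72, 11.79 and 11.60, and those for mmp16 were 9.21, 9.07 and 9.70. The spread of mmp16 was the widest of the 3, at an SD of 0.33. Of the TIMPs, timp2, which in mammals joins mmp14 and the mmp2 precursor in one complex, had 13.62, 13.58 and 13.62 for the S copy. The L copy of timp2 had a mean of 13.07, so both copies were detected. timp3, which binds to the matrix itself, had 12.13, 12.35 and 12.48, with a mean of 12.32 ± 0.18 (SD, n = 3).

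Of the ADAMs, a family that includes membrane-bound shedding proteases, 3 of 9 genes were detected and called. adam10, the sheddase of Notch and cadherins, had 13.33, 13.33 and 13.29, and its other probe sets had means of 4.54 and 4.36. adam22, which has no protease activity and is a receptor of the nervous system, had 8.48, 8.19 and 8.65. adam17, which releases growth factors and cytokines from the cell surface, had 4.93, 5.37 and 4.93, just above the threshold, with an adjusted p of 0.00270 from limma. The remaining genes, adam9, adam11, adam15, adam21, adam28.2 and adam33, had means of 1.88 to 2.59. adam33 carries the older name adam13 in RefSeq, a protease of neural crest migration in Xenopus, and its 3 probe sets for both copies were under 4. The only ADAMTS gene, adamts1, a proteoglycan-cleaving enzyme, had 12.46, 12.56 and 12.79.

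The proteases of matrix assembly and of the pericellular space were also detected. tll1, a tolloid-like protease of the family that processes procollagen and cuts chordin, had 11.11, 11.02 and 11.20, and tll2 had 8.54, 8.39 and 8.31. The related tll2l was at the floor of the arrays, with a mean of 1.99. htra1, a secreted serine protease of cartilage and other matrix, had 11.53, 11.37 and 12.63, with replicate 3 apart from the others. fap, fibroblast activation protein, had 11.08, 10.57 and 10.52. Tissue plasminogen activator, plat, had 10.54, 10.31 and 10.46, with a mean of 10.44 ± 0.11 (SD, n = 3).

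All 10 cathepsin genes with a member probe set were detected, and the SD over the pools was 0.07 to 0.40 for those called. All 7 cysteine cathepsin genes were called, with means from 11.36 to 13.86. ctsb, the broad cathepsin B, had 13.92, 13.91 and 13.74 for the S copy, ctsv had 13.43, 13.29 and 13.10, and ctsh had 13.15, 13.34 and 13.31. Cathepsin C, ctsc, the activator of leukocyte granule proteases, had 13.08, 13.22 and 12.71, and ctsl had a mean of 12.10. Cathepsin Z, ctsz, had 13.11, 13.51 and 12.71 for the S copy, an SD above the median of the detected members. Cathepsin S, ctss, typical of antigen-presenting cells, had 11.52, 11.45 and 11.11 for the S copy and 9.64, 9.89 and 9.01 for the L copy. The aspartic cathepsin ctsd had 11.83, 11.88 and 11.74, and the serine cathepsin ctsa, which protects lysosomal sialidase, had 13.27, 13.26 and 13.01. ctse, an aspartic protease of stomach and blood cells, had 3.75, 5.16 and 4.0. Its mean of 4.30 ± 0.75 (SD, n = 3) rested on replicate 2, its adjusted p was 0.320 in limma's test, and without that array its mean was 3.88.

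Replicate 3 had the lowest value for 7 of the 10 detected cathepsin genes and the highest for none. Over all 7382 detected genes replicate 3 was the lowest in 37.7%. It was also the lowest in 46.8% of the 47 detected member genes, a share that includes the cathepsins. Among the 10 detected serpins it was the lowest in 5, a small count to be read against the 37.7% over all detected genes. The differences were small, with a median of -0.26 between replicate 3 and the mean of the other arrays, against -0.02 over all detected genes, and they ranged from -0.60 to 0.06. Of a list of other lysosomal genes, 10 of 11 on the array were called, where 78.7% of all genes were called, and the median difference was -0.11. Among them lamp1 and psap had means of 14.56 and 14.21. Each array is 1 pool, so these differences have no test.

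Cystatin C, cst3, the secreted inhibitor of cysteine cathepsins, had 14.35, 14.50 and 14.38, with a mean of 14.41 ± 0.08 (SD, n = 3). cst7, cystatin F, which is made by immune cells, had 5.43, 5.30 and 6.32, with replicate 3 the highest and an adjusted p of 0.00343. Both were called.

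Of the serpins, 10 of 17 genes were detected and all 10 were called. Protease nexin-1, serpine2, an inhibitor of thrombin and plasminogen activators, had 14.00, 13.96 and 13.98 for the L copy. serpind1, heparin cofactor II, had 13.83, 13.74 and 13.78. serpinf1, which encodes PEDF, an inhibitor of vessel growth that does not block proteases, had 13.65, 13.69 and 13.54. Neuroserpin, serpini1, had 13.67, 13.62 and 13.47, and serpinh1, the collagen chaperone of the endoplasmic reticulum, had 13.24, 13.22 and 13.16. In these 5 genes the SD over the pools was 0.02 to 0.10.

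The intracellular clade B was detected by 4 of 5 genes. serpinb6, whose loss causes deafness in humans, had 11.62, 12.04 and 11.56. serpinb4 had 10.94, 11.32 and 10.94, and serpinb1, an inhibitor of neutrophil elastase, had 9.77, 10.17 and 9.90. Maspin, serpinb5, of epithelial cells, had 5.43, 5.71 and 5.84, and serpinb10 was at the floor with a mean of 1.90. Serpins known from blood plasma were found on both sides of the threshold, as serpind1 and serpina1 were detected and others were not. serpinc1, antithrombin, had a mean of 2.02, serpinf2, the inhibitor of plasmin, had 2.99, and serpina3, serpina3k and serpina6 had 1.94, 2.67 and 1.94. The pancreatic serpini2 had a mean of 2.08. serpina1, alpha-1 antitrypsin, was the detected gene of clade A, at 10.12, 10.58 and 9.39 by a probe set of a class (suffix _s_at) whose probes can match several transcripts. A second serpina1.L probe set without that suffix had 9.64, 10.17 and 8.87, so both had replicate 2 highest and replicate 3 lowest. Of the 9 liver plasma genes on the array, the detected ones were tf with 12.84, 12.88 and 14.86 and ahsg with 4.69, 4.34 and 3.12, neither highest in replicate 2. ambp passed 4 in replicate 2 only, at 7.16. The other 6 were under 4 in every array and near the floor, where the order of the arrays is not read. Among these apob had 2.12, 2.78 and 2.10. The part of the liver genes in the serpina1 values was not tested.

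The cleavage stimulation factor genes, taken in by spelling only, were all called. cstf3 had 11.36, 10.78 and 10.91, cstf2 had 10.24, 10.36 and 10.20, and cstf1 had 8.62, 8.50 and 8.79.

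Genes outside the symbol rule that act with these enzymes were counted from a list of pericellular activators and inhibitors. Of 17 on the array, 15 were called, where 78.7% of all genes were called. Among them sparc, a collagen-binding matrix protein, had a mean of 14.74, and a2m, the plasma trap of proteases of every class, had 14.16. The thrombin gene f2 and mep1a were under 4.

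The collagenases differed between the pools and were higher in replicate 3. mmp1.S, which RefSeq also lists as mmp18 and col4, had 2.10 and 2.11 in replicates 1 and 2 and 8.90 in replicate 3. mmp8.L, the neutrophil collagenase in mammals, had 1.95, 1.95 and 6.82. As the lower values are at the floor of the arrays, the differences are bounded only by the threshold, and replicate 3 exceeded 4 by 4.90 and 2.82 on the log2 scale. The S copy of mmp8 had 1.91, 1.91 and 3.21, under 4 in every array. mmp13.S, collagenase 3, had 4.21, 5.18 and 6.55, with a mean of 5.31 ± 1.18 (SD, n = 3). In limma's test its adjusted p was 0.0526. It was 0.0158 without replicate 1, the lowest array of this gene, 0.121 without replicate 2 and 0.0938 without replicate 3. mmp9.1.S, a gelatinase B, had 8.31, 8.68 and 10.30, and was thus 1.80 higher in replicate 3 than the mean of the others. mmp1 passed the threshold only through replicate 3, as its mean was 4.37 ± 3.92 (SD, n = 3) with that array and 2.11 without it. limma gave it an adjusted p of 0.646. Without replicate 1 or 2 the mean of mmp8 passed 4, at 4.39 or 4.38.

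In the other direction, mmp9.2.L, which RefSeq also lists as mmp-9th, had 10.38, 9.37 and 8.62. It was 1.26 lower in replicate 3 than the mean of the others, while mmp9.1 was higher there, so the 2 gelatinase B genes went opposite ways over the pools. These genes share a RefSeq synonym, mmp9, and how far their probes tell them apart was not tested.

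**Figure D2:**
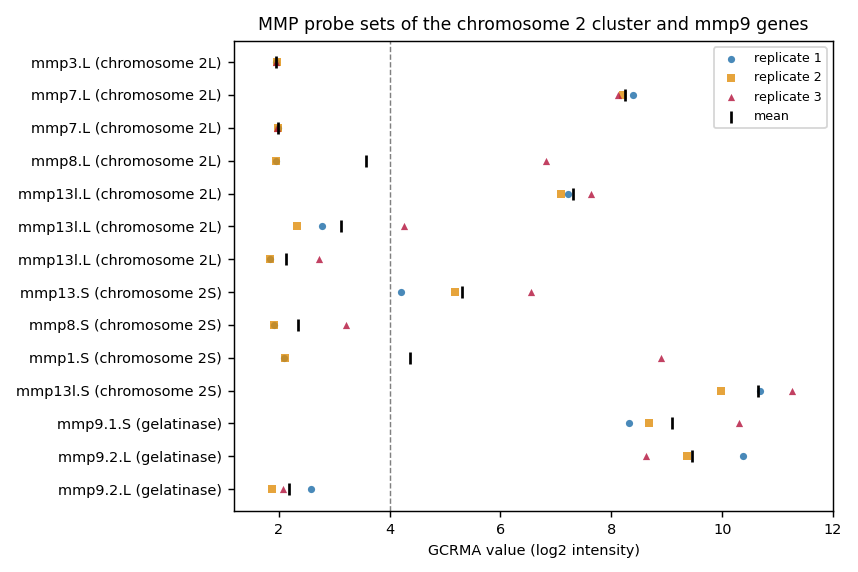
GCRMA values (log2 intensity, horizontal axis) in the 3 arrays for each probe set of the MMP genes that lie together on chromosomes 2L and 2S, in their order there, and of mmp9.1 and mmp9.2, with the mean as a bar and the threshold of 4 as a dashed line. Of the 8 probe sets of mmp1, mmp8, mmp13 and mmp13l, 6 reach 4 in replicate 3, 3 of them in that array only, and 2 are under 4 throughout, as are mmp3.L and 1 probe set of mmp7.L.

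The collagenase genes are close neighbours in the RefSeq gene order of assembly v10.1. On chromosome 2S the order is mmp13.S, mmp8.S, mmp1.S and mmp13l.S, with unnamed protein-coding genes between them. On chromosome 2L it is mmp3.L, mmp7.L, mmp20.L, mmp8.L, mmp1.L and mmp13l.L, of which mmp20.L and mmp1.L have no member probe set. Of the 8 probe sets of mmp1, mmp8, mmp13 and mmp13l, 3 were at 4 or higher in all arrays, those of mmp13.S and mmp13l.S and 1 of mmp13l.L, and they were higher in replicate 3 by 0.48 to 1.86 than the mean of the others. Another 3, of mmp1.S, mmp8.L and mmp13l.L, were at 4 or higher in replicate 3 only, and the remaining 2 were under 4 in all arrays. The detected probe set of mmp7.L, in the same run of genes, had its lowest value in replicate 3, and the probe set of mmp3.L was at the floor, where the arrays have no order. This grouping was made after the values had been seen. These collagenases are alike in sequence, and cross-hybridization among them was not tested.

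Over all 107 probe sets, 7 (6.54%), of 6 genes, were higher in replicate 3 than the mean of the other arrays by more than 1 on the log2 scale, against 1.39% of all frog probe sets. They belong to mmp1, mmp8, mmp13, mmp9.1, mmp13l and htra1. Another 2 (1.87%) were lower by more than 1, against 0.911%, those of mmp9.2 and serpina1, and this count was 1 without replicate 2 and 4 without replicate 1. Replicate 1 was higher than the others by more than 1 in 1 member probe set and lower in 4, against 0.758% and 0.81% of all frog probe sets. For replicate 2 the counts were 1 and 3, against 0.73% and 1.31%. The 4 lower in replicate 1 and the 3 lower in replicate 2 are all among the 7 that were higher in replicate 3. There the mean of the others includes replicate 3, so these counts are not separate departures. Of the 69 detected member probe sets, 10 (14.5%) had a range over the arrays above 1, against 6.3% of all detected frog probe sets, and 6 did without replicate 2 and 2 without replicate 3. These probe sets were those of mmp1.S, mmp13.S, mmp9.1.S, mmp9.2.L, mmp13l.S, htra1.S, ctse.L and cst7.L and both of serpina1.L. Of these, mmp1.S and ctse.L passed the detection threshold on average only through 1 array, replicate 3 and replicate 2. The median SD of detected probe sets was 0.20 for the members and 0.16 over the array, and 0.11 for the members without replicate 3. A difference between single arrays has no replicate, so none of these counts has a test.

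**Figure D3:**
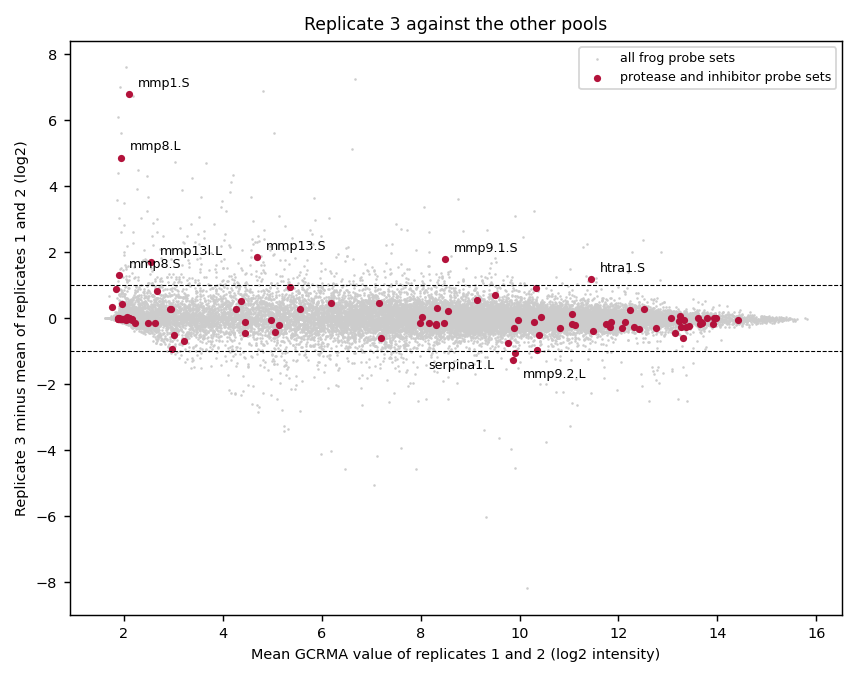
Difference between replicate 3 and the mean of replicates 1 and 2 (log2, vertical axis) against that mean (GCRMA value, horizontal axis), for all 32475 frog probe sets in grey and the 107 member probe sets in red. Dashed lines mark a difference of 1 in either direction, beyond which lie 7 member probe sets above and 2 below.

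Some genes outside the members also stood apart in replicate 3. The 3 named next were picked because they were high there, so that their direction is no result. The complement gene c3.L had 6.21, 7.14 and 13.93, the chemokine gene cxcl8.L had 8.25, 7.88 and 11.45, and cebpd.S, a transcription factor of the acute phase, had 10.00, 9.83 and 13.01. The leukocyte markers were less uniform, as mpo had 4.79, 4.35 and 6.44 and lyz 8.58, 8.31 and 9.32, while ptprc and tyrobp were under 4 in all arrays, lcp1 was at 7.27 to 7.33 and coro1a had 4.17, 5.07 and 4.54. The summed linear level of the 6 leukocyte markers on the array was 598, 534 and 915. Such a sum rests mostly on the highest probe sets, and lyz was the highest of the 6 in every array. Over the 6 markers the median difference between replicate 3 and the mean of the others was -0.003. Among the bone markers bglap had 9.54, 9.52 and 11.24, acp5, an osteoclast enzyme, had 11.80, 11.64 and 11.85, and sp7 was at the floor. Skeletal muscle genes were lower in replicate 3, by more than 1 in 6 of 7, and their summed linear level was 29687, 31286 and 9042. Red cell markers summed to 127078, 123378 and 132032, with 3 of 9 higher in replicate 3 by more than 1. Of the 3 hair cell markers, calb1 had 8.19, 8.15 and 10.79, whereas myo6 had 12.48, 12.32 and 12.37 and lhx3 had 5.29, 4.41 and 4.99. Of the 9 liver genes, tf was higher in replicate 3 by more than 1, and ambp and ahsg were lower. The larvae of replicate 3 also had the lowest mean weight. The part of leukocytes, bone, muscle, blood, liver, hair cells or animal size in the collagenase values was not tested.

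The detection of each copy was counted for the member genes only. The same count over all genes of the array was not made, and 79.9% of all genes with a single symbol were detected. The agreement of copies is therefore not read as a trait of the members. Probe sets of both copies were on the array for 15 genes, of which 10 were detected by both copies, 3 by the L copy only and 2, adam33 and mmp8, by neither. The genes detected by L only were ctse, serpina1 and serpind1. serpind1.L had a mean of 13.78 and serpind1.S had 3.04, and serpina1.S was at 2.03. The L copy of serpinh1 was detected only by a probe set of the _s_at class. Whether the probes of one copy also bind the RNA of the other was not tested.

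**Figure D4:**
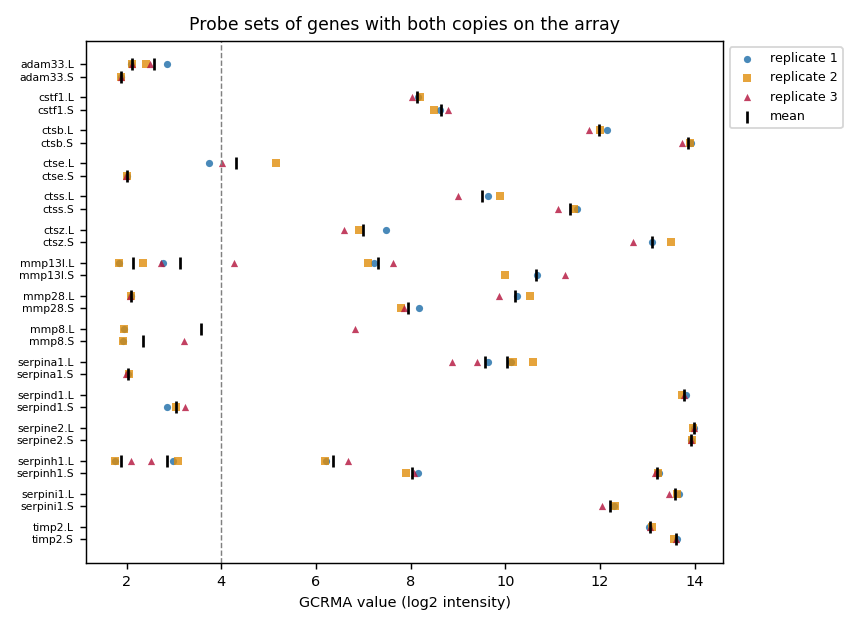
GCRMA values (log2 intensity, horizontal axis) in the 3 arrays for every probe set of the 15 genes with both an L and an S copy on the array, with the mean of each probe set as a bar and the threshold of 4 as a dashed line. Both copies lie above 4 for 10 genes, and only the L copy does for ctse, serpina1 and serpind1.

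Detection also depended on the probe set within a gene. Of 29 genes with several probe sets, 11 had some at or above 4 and others under it, and in 8 of these this happened among probe sets of a single copy. The same share over all genes of the array was not counted, so whether it differs for the members is not known. serpinh1 had 5 probe sets, with means of 13.21 and 8.04 for the S copy and of 6.36, 2.85 and 1.87 for the L copy. Those at 8.04 and 6.36 are of the _s_at class, whose probes can match several transcripts. The sets at 8.04 and 1.87 stem from the same sequence record, so their split by copy is uncertain. One probe set of mmp7.L had a mean of 8.25, and the other had 1.98, 1.99 and 1.98 in the 3 arrays. Likewise mmp28.L had 10.22 by one probe set and 2.08 by another, while mmp28.S had 7.94. The cathepsin genes ctsd and ctsv had their highest probe set at 11.82 and 13.27 and their lowest at 2.05 and 2.15, and ctsc had others at 4.42 and 2.15. mmp13l.L had probe sets at 7.32, 3.12 and 2.13, and mmp9.2.L at 9.46 and 2.18. The mmp13l.L sets at 7.32 and 2.13 stem from the same sequence record, and why they differ was not tested. With the lowest probe set of each gene in place of the highest, 36 of the 65 genes were detected.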

How the data were processed

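The deposited values are log2 intensities per probe set. The authors made them by GCRMA from 1 Affymetrix array per RNA pool, and the software version is not given in the sources used here. All 3 deposited columns were used. Of the probe sets, 160 controls and reporters were left out. Gene symbols came from the platform annotation, and the 80 gene IDs of the members all carry the same symbol in RefSeq (assembly v10.1). limma 3.58.1 (R 4.3.3) tested all 32475 frog probe sets for a mean above 4. The test was one-sided and moderated, variances followed a trend on the mean, and p-values were adjusted by Benjamini-Hochberg. The step was first tested on simulated data. Counts used Python 3.11.15 and pandas 2.3.3. By the naming rule, values per array are given for the 3 highest genes of each role group, for genes detected without a call or with arrays or probe sets on both sides of 4, and for up to 8 detected genes with a range above 1. Further members are named for known roles, genes under 4 by their mean, and partner lists by counts and their 2 highest genes. Other members whose values are given were chosen after these were seen. Members and lists were chosen with earlier results of these data known, and the comparison of replicate 3 with the other arrays was added after the values were seen. The number of arrays limits the precision. Each pool was run on 1 array, so the spread behind the p-values holds differences between pools and between arrays, which cannot be told apart.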

Additional observations from a re-analysis of the deposited data

How the results depend on the processing

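The counts of detected and called genes and probe sets stayed within 1.5 times of the main value under every alternative tried. Detected genes numbered 41 to 49 with thresholds from 3 to 6 and 36 by the lowest probe set of each gene. Without 1 array, detected genes numbered 46 to 48, called genes 44 to 45 and called probe sets 64 to 65. Genes on both sides of the threshold numbered 11 to 12 without 1 array and 11 to 13 with thresholds from 3 to 6. Leaving out 1 array moved the detected probe sets with a range above 1 from 10 to between 2 and 10, the median SD from 0.20 to between 0.11 and 0.19, and the median gene value from 10.03 to between 9.84 and 10.30. With a difference of 0.5 in place of 1, 14 member probe sets were higher and 10 lower in replicate 3, and with 2 there were 2 and 0. Without replicate 1 or 2, 7 to 9 were higher and 1 to 4 lower. Without 1 array the mean of mmp1 was 2.11 to 5.50, that of mmp8 1.95 to 4.39 and that of ctse 3.88 to 4.58, each crossing 4. mmp13 passed limma's test with arrays shifted to a common median (adjusted p = 0.0187) and without replicate 1 (adjusted p = 0.0158), and over its alternatives the adjusted p was 0.0158 to 0.121. The cause was not tested. No paired analysis was possible because all arrays belong to 1 group.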
